A study of Caenorhabditis elegans with 2 samples.

Results

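EGL-43 binding was examined at the TWK genes, the *C. elegans* family of K2P potassium channels, with ChIP-seq peaks of whole L3 larvae. The members are all protein-coding genes of Ensembl WBcel235 whose name starts with twk-, plus *sup-9*, *unc-58* and *egl-23*, which belong to the same family under older names. This rule gave 47 genes out of 19973 protein-coding genes on the nuclear chromosomes. The rule used names only and no ChIP-seq value. There was 1 condition: larvae of the strain egl43-gfp, labelled wild-type, in which *gfp* is inserted in the endogenous *egl-43* gene (allele *zh136*). They were grown for 27 hours at 25°C, and their chromatin was immunoprecipitated with anti-GFP antibody ab290. The 2 biological replicates came from separately grown populations, and no control library was used here, so no comparison between groups and no test was possible. Since the chromatin was of whole larvae, the peaks do not tell in which cells EGL-43 was bound. The study reports that most EGL-43::GFP at this stage was seen in the somatic gonad and in some head and tail neurons.

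The peak lists hold 8394 peaks for replicate 1 and 10925 for replicate 2, each with the fold enrichment of its summit (its highest point) over the background that the peak caller estimated. Peaks with an overlap of 1 bp or more were joined, which gave 11646 regions on the nuclear chromosomes, and the 7256 regions with a peak of both replicates are called shared. The lists give no read totals, so the depth is unknown. A gene was counted when a region touched the span from 2000 bp before its start to its end. The family label was compared with the RefSeq annotation, where the products of 45 of the 47 genes are described as potassium channels. The products of *twk-30* and *twk-32* are described there as fibronectin type-III domain-containing proteins.

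K2P channels pass a leak of potassium out of the cell at rest, and each subunit carries a tandem pair of pore domains, so that a channel is a dimer. They hold the membrane potential of neurons and muscles at a negative value. In *C. elegans*, gain-of-function mutations make these genes visible: altered *sup-9* or *twk-18* channels silence body wall muscle, *unc-58* mutants are nearly immobile and shake, and *egl-23* mutants retain their eggs. EGL-43 is a zinc finger transcription factor related to mammalian EVI1.

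The DNA under the summit of the higher replicate is shown for 7 of the 13 shared regions, 1 at each of 7 TWK genes. They are the highest region of each gene by the lower of the replicates' values, but for *twk-49* the region in intron 3, which no other gene shares, and *twk-30* is left out. The letters come from the WBcel235 genome (RefSeq), are written in the direction of the TWK gene (the minus strand, but the plus strand for *twk-48*), and reach 50 bases to either side of the summit of the higher replicate, or further where a small RNA gene lies beside it. The summit of the other replicate falls outside the window at *twk-2* (113 bp away), *twk-17* (53 bp), *twk-49* (167 bp) and *twk-14* (219 bp). Capitals mark a run of CT repeats in *twk-2* and *twk-14*, the tRNA gene in *twk-48*, the snoRNA gene in *twk-5*, and otherwise the base at the summit.
twk-2 upstream (chrII:4453542-4453642): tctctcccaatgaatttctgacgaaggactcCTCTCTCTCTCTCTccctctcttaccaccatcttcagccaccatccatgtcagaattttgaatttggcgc
twk-17 upstream (chrX:7608755-7608855): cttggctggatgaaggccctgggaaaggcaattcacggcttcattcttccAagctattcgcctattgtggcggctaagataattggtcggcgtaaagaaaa
twk-4 intron 8 (chrII:9187491-9187591): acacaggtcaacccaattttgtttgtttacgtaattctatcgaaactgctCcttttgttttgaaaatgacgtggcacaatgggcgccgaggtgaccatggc
twk-48 intron 5 (chrIII:9861597-9861712): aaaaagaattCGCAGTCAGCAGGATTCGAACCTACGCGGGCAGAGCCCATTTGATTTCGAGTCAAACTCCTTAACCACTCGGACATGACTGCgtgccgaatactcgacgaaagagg
twk-5 intron 1 (chrII:11484673-11484847): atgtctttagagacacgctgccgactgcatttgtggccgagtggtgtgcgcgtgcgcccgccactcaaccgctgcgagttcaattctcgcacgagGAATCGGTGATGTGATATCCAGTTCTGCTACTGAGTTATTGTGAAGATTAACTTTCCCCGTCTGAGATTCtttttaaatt
twk-49 intron 3 (chrII:6495689-6495789): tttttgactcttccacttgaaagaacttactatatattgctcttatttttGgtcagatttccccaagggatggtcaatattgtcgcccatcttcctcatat
twk-14 intron 1 (chrV:12390957-12391057): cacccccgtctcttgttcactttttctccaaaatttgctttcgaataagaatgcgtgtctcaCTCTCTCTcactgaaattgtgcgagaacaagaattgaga

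The word CTCTCTCT, searched on both strands after these windows had been read, occurred in 2 of the 13 windows of TWK regions (15.4%), against 493 of 7256 windows of all shared regions (6.79%). In windows of 201 bp it occurred in the same 2 TWK regions, against 861 of 7256 (11.9%). These 2 were the *twk-2* upstream window and the *twk-14* intron 1 window. The binding sites of the zinc fingers of mammalian EVI1, AGATGAG (C-terminal fingers) and ACAAGATA (N-terminal fingers), and the AP-1 site, written TGACTCA or TGAGTCA, were searched in the same way. None of the 3 kinds of word occurred in a TWK window of 101 bp. Over all shared regions AGATGAG was found in 309 windows (4.26%), ACAAGATA in 20 (0.276%) and the AP-1 word in 249 (3.43%). The GC content of the TWK windows had a median of 44.6% (32.7 to 59.4%), against a median of 45.5% over all shared windows.

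A shared region was found at 8 of the 47 TWK genes (17.0%), against 25.1% of all protein-coding genes. In order of the lower of the replicates' fold enrichments they were *twk-4*, *twk-2*, *twk-30*, *twk-48*, *twk-49*, *twk-5*, *twk-14* and *twk-17*. Together they held 13 shared regions, 3 each at *twk-4* and *twk-49* and 2 at *twk-14*. A peak in at least 1 replicate was present at 19 TWK genes (40.4%), against 33.7% of all protein-coding genes. The share of the family was thus below that of all genes for shared regions and above it for peaks of any kind. TWK genes are longer, with a median of 4633 bp against 2027 bp. For peaks of any kind, genes of like length were compared only from 10000 bp upward. Counted in each list by itself, with or without a partner in the other, replicate 1 had a peak at 10 of the 47 genes (21.3%), against 26.9% of all protein-coding genes. Replicate 2 had a peak at 17 (36.2%), against 32.0%.

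The regions at TWK genes were mostly peaks of replicate 2 without a partner. Of 37 regions, 13 were shared (35.1%), against 62.3% of all 11646 regions. Peaks of replicate 2 only made up 22 of the 37 (59.5%), against 30.2% of all regions, and peaks of replicate 1 only made up 2 (5.41%), against 7.53%. The fold enrichment of the 22 regions of replicate 2 only ran from 2.30 to 4.39 with a median of 2.92, and the median of all such regions was 2.95. These regions were thus about as high as their kind elsewhere, while their share was larger. They were not spread evenly over the family. Of the 37 regions, *twk-4* held 8, of which 3 were shared, and *unc-58* held 4, all of replicate 2 only. The shares of regions were not compared among genes of like length.

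The shared regions at TWK genes were of moderate height. Their fold enrichment ran from 2.71 to 4.18 in replicate 1 (median 3.60) and from 2.87 to 5.57 in replicate 2 (median 4.05), against medians of 3.91 and 4.39 over all shared regions. With the 7256 shared regions in order of their lower value, the highest TWK region was number 2827 and the lowest number 6352, and 38.9% of all shared regions lay above the highest. Only 3 of the 13 were above the median of all shared regions, 3.69. The log2 ratio of replicate 2 to replicate 1 was 0.21 at the median of the 13 regions (SD 0.31), and 0.13 at the median of all shared regions (SD 0.31). It ran from -0.32 to 0.70, inside the range of -0.49 to 0.74 that holds 95% of all shared regions. Differences in height among the TWK regions were about as large as the differences between replicates of 1 region, so their order is not firm.

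**Figure D1:**
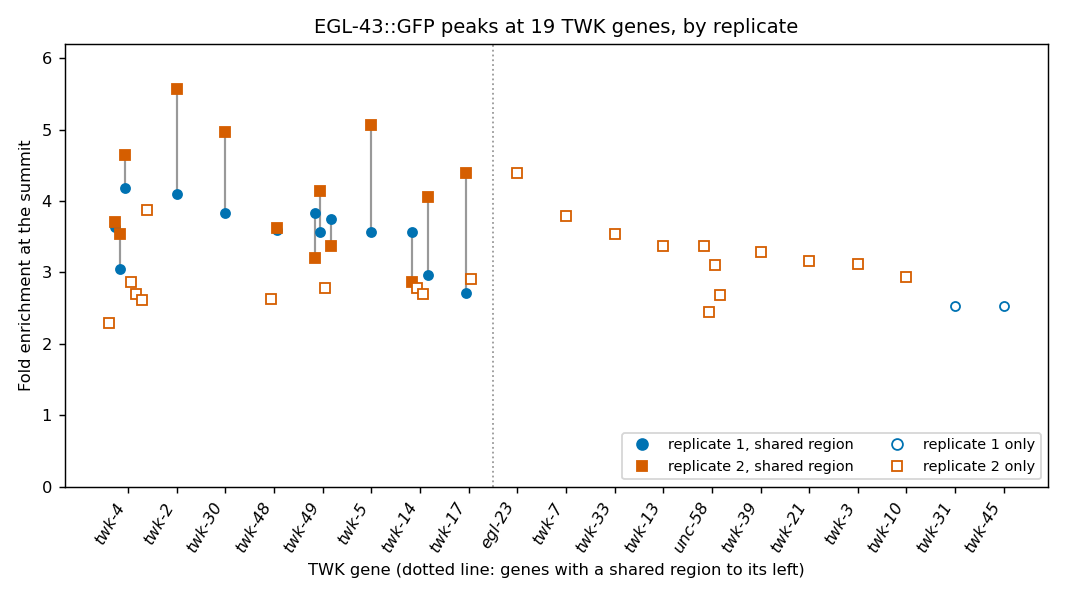
Fold enrichment at the summit (vertical axis, ratio) of each region at the 19 TWK genes with a peak (horizontal axis), with circles for replicate 1, squares for replicate 2, a line joining the values of a shared region and open symbols for peaks of 1 replicate only. Shared regions occur at the 8 genes to the left of the dotted line, and most open symbols are squares between 2.30 and 4.39.

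**Figure D2:**
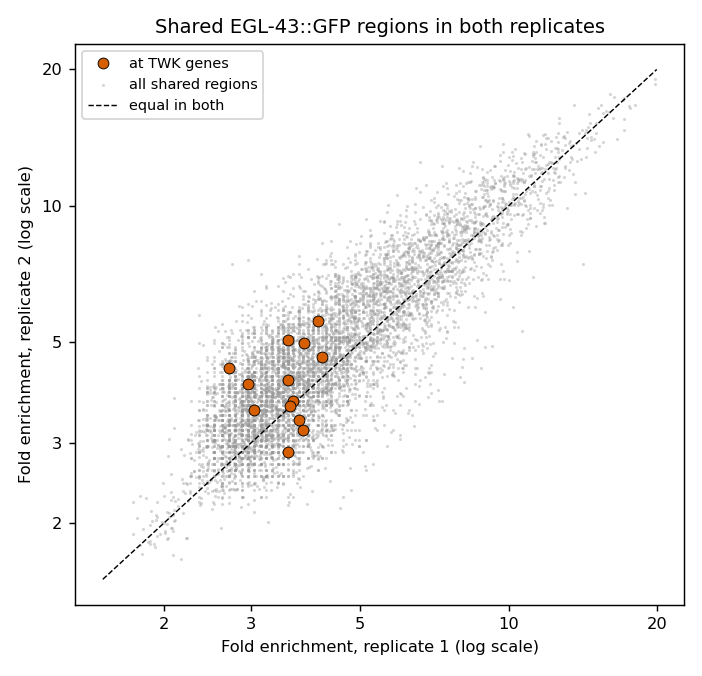
Fold enrichment of every shared region in replicate 1 (horizontal axis) and replicate 2 (vertical axis), both on log scales, with the 13 regions at TWK genes in orange, all 7256 in grey and a dashed line of equality. The TWK regions lie in the dense lower part of the cloud, and 10 of the 13 lie above the line.

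Upstream of the gene start, shared regions were found at *twk-2*, *twk-30* and *twk-17*, which is 3 of the 47 genes (6.38%), against 19.2% of all protein-coding genes. By the lower value, the highest of these was the region of *twk-2*, at chrII:4453401-4453882. It was enriched 4.09-fold in replicate 1 and 5.57-fold in replicate 2, the highest value of replicate 2 in the family. Its −log10 q-values were 13.8 and 26.7. The summits lay 554 and 441 bp upstream of the gene start, 113 bp apart, and no other protein-coding gene had its body or 2000 bp upstream window there. *twk-2* (chrII:4441103-4453151, minus strand) had no further peak along its 12049 bp.

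At *twk-17*, the only X-linked member with a shared region, the region at chrX:7608689-7608937 was enriched 2.71-fold in replicate 1 and 4.39-fold in replicate 2. This is the widest gap between the replicates among the 13 regions (log2 ratio 0.70). Its summits lay 776 and 723 bp upstream of the start of *twk-17* (chrX:7599806-7608082, minus strand), with no other protein-coding gene assigned. A second peak of replicate 2 only, with a fold enrichment of 2.91, had its summit 2005 bp upstream.

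The region of *twk-30* is shared with a neighbour. It lay at chrI:8813371-8813585, enriched 3.84-fold in replicate 1 and 4.97-fold in replicate 2, with −log10 q-values of 15.3 and 27.7, the highest of the family in both replicates. Its summits were 1821 and 1823 bp upstream of *twk-30*, which runs away from it on the minus strand. They were only 291 bp upstream of *F36A2.7*, which starts on the plus strand at the other side. The lists do not tell which of the 2 genes the region belongs to.

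Within gene bodies, *twk-4* had the highest region of the family by the lower value, and all 3 of its shared regions lie in the overlapping gene *sym-2*, which encodes an RNA-binding protein. Ensembl draws *twk-4* (chrII:9178514-9194295, minus strand) to the same end as *sym-2* (chrII:9178514-9188480), although its coding sequence ends near position 9187223, in its coding exon 9. The strongest region, chrII:9187443-9187786, was enriched 4.18-fold in replicate 1 and 4.64-fold in replicate 2. It lay in intron 8 of *twk-4*, between its last coding exons, and 939 bp downstream of the start of *sym-2*. The others, chrII:9185926-9186236 with 3.64 and 3.71 and chrII:9186398-9186656 with 3.05 and 3.54, lay beyond the *twk-4* stop codon, in intron 9. Replicate 2 alone had further peaks where the genes overlap. One, of 2.87, lay in coding exon 8, 44 bp downstream of the start of *sym-2*, and another, of 2.30, in intron 11. No shared region was found in the part of *twk-4* that is not also *sym-2*. In that part, replicate 2 alone had a peak in intron 1 with a fold enrichment of 2.70 and upstream peaks of 2.62, at 831 bp, and of 3.88, at 2036 bp. The last of these lay 1181 bp upstream of *let-23*, the EGF receptor gene on the other strand.

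**Figure D3:**
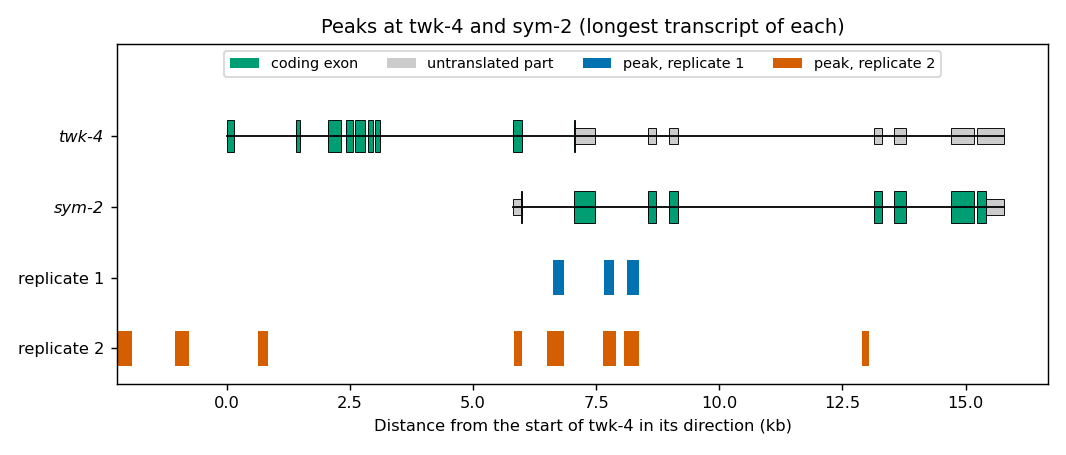
Map of *twk-4* and *sym-2*, with the distance from the start of *twk-4* in kb on the horizontal axis, green boxes for coding exons, grey boxes for untranslated parts and blue and orange bars for the peaks of replicates 1 and 2. All 3 peaks of replicate 1 fall within *sym-2*, and the peaks in intron 1 or upstream of *twk-4* are of replicate 2 only.

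*twk-49* (chrII:6492785-6499167, minus strand) also had 3 shared regions. The region in intron 3, chrII:6495462-6495978, is assigned to no other protein-coding gene and was enriched 3.75-fold in replicate 1 and 3.38-fold in replicate 2, with summits 167 bp apart. The other regions lie at its 3′ end, where *T28D9.1* starts on the opposite strand. One, chrII:6493051-6493421, had 3.57 and 4.14 and a summit in the untranslated exon 8. The other, chrII:6492436-6492946, had 3.83 and 3.21, and its summit lay past the end of *twk-49* and 180 bp into *T28D9.1*.

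*twk-14* (chrV:12387039-12395706, minus strand) had a shared region in intron 1, chrV:12390646-12391105, enriched 2.96-fold in replicate 1 and 4.05-fold in replicate 2. The start of a shorter transcript of the gene, K01D12.4a.3, lies between the summits, which were 109 bp downstream of it in replicate 1 and 110 bp upstream of it in replicate 2. This distance of 219 bp between summits is the longest among the 13 regions. Their median was 43.0 bp, against 25.0 bp over all shared regions. Summits were over 100 bp apart in 4 of the 13, against 711 of 7256. A second shared region, chrV:12387028-12387535, covers coding exon 9 near the end of the gene, with 3.57 in replicate 1 and 2.87 in replicate 2. Neither region has another protein-coding gene assigned, and replicate 2 alone had peaks of 2.78 and 2.70 between them.

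The region of *twk-48* covers a small noncoding gene inside an intron, and that of *twk-5* overlaps part of one. In intron 5 of *twk-48* (chrIII:9860730-9863328, plus strand), the region chrIII:9861581-9861774 had almost equal values, 3.60 in replicate 1 and 3.62 in replicate 2. Both summits fell within a tRNA gene of 82 bp on the opposite strand, chrIII:9861607-9861688, which is the capitalised part of the window printed above. In intron 1 of *twk-5* (chrII:11483215-11485300, minus strand), the region chrII:11484692-11484907 had 3.57 in replicate 1 and 5.06 in replicate 2. It touches the snoRNA gene *B0334.12* (chrII:11484683-11484752, plus strand), but its summits lie beside that gene. A peak of replicate 2 only, with 2.63, lay 347 bp upstream of *twk-48*.

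tRNA genes recurred among the regions at TWK genes. Of the 37 regions, 6 touched a tRNA gene (16.2%), against 238 of all 11646 regions (2.04%). The summit lay inside the tRNA gene in all 6, against 142 of the 238. The 6 regions at TWK genes belonged to 5 genes, namely *twk-48*, *twk-7*, *twk-10*, *twk-21* and *unc-58*. Those of the last 4 were peaks of replicate 2 only. Counted by tRNA gene, the share met by a region was close to that of the genome. The bodies and upstream windows of TWK genes hold 13 tRNA genes, of which 6 were met by a region (46.2%), against 266 of 612 in the genome (43.5%). A shared region met 1 of the 13 (7.69%), against 141 of 612 in the genome.

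**Figure D4:**
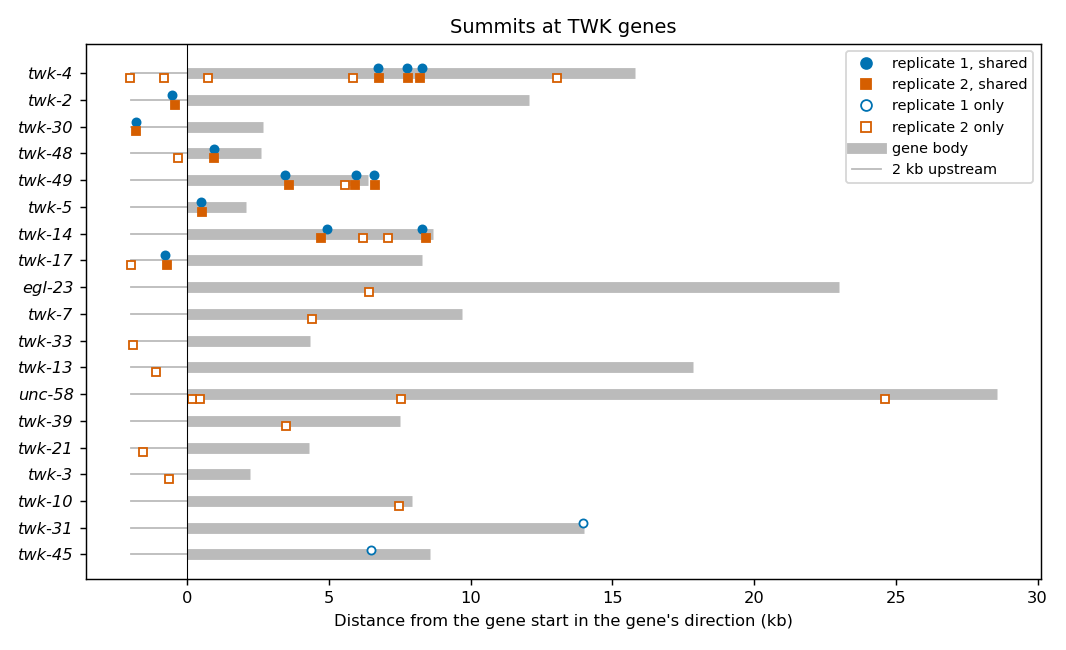
Position of every summit at the 19 genes relative to the gene start, in kb in the direction of the gene (horizontal axis), with thick bars for gene bodies, thin lines for the 2 kb upstream, circles for replicate 1, squares for replicate 2 and open symbols for peaks of 1 replicate only. Shared summits lie upstream at *twk-2*, *twk-30* and *twk-17* and inside or at the end of the gene at the other 5.

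Of the 13 shared summits, 3 lay upstream, 7 in introns, 1 in a coding exon, 1 in an untranslated exon and 1 beyond the end of the gene. A region assigned to no other protein-coding gene was found at 6 of the 47 genes (12.8%), namely *twk-2*, *twk-5*, *twk-14*, *twk-17*, *twk-48* and *twk-49*, against 12.4% of all protein-coding genes.

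The 3 members with older names had no shared region. *sup-9*, whose channel works in muscle with the proteins UNC-93 and SUP-10, had no peak in either replicate, and the nearest shared region, with fold enrichments of 4.01 and 4.22, lay 6987 bp upstream of it. *egl-23* (chrIV:13989081-14012074, plus strand) had 1 peak of replicate 2 only, in intron 1, enriched 4.39-fold (−log10 q-value 16.6). This was the highest value of a TWK peak without a partner, and it equals the value of replicate 2 at *twk-17*. *unc-58* (chrX:10104610-10133182, minus strand), the longest member, had 4 peaks of replicate 2 only. The peaks in intron 5 and intron 4 had 3.38 and 2.45, the second of them 174 bp upstream of the start of the transcript T06H11.1b.1. The peaks in intron 1, with 3.10 and 2.69, had their summits inside separate tRNA genes 444 and 162 bp from the gene start.

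The other 9 genes with peaks of 1 replicate had 1 peak each. In replicate 2, these were *twk-7*, a regulator of locomotor activity (3.80, intron 6, in a tRNA gene), *twk-33* (3.54, 1927 bp upstream), *twk-13* (3.38, 1101 bp upstream), *twk-39* (3.29, coding exon 8), *twk-21* (3.16, 1551 bp upstream, in a tRNA gene), *twk-3* (3.12, 648 bp upstream) and *twk-10* (2.94, intron 9, in a tRNA gene, close to the start of a shorter transcript). In replicate 1, *twk-31* (untranslated exon 22) and *twk-45* (intron 8) each had a peak with the same fold enrichment of 2.53. None of these values was below the lowest fold enrichment of a shared region anywhere, 1.73 in replicate 1 and 1.67 in replicate 2. That holds for every region of 1 replicate in the data, the lowest being 1.77 in replicate 1 and 1.68 in replicate 2. It therefore does not set these peaks apart.

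The remaining 28 genes had no peak. They were *twk-1*, *twk-6*, *twk-8*, *twk-9*, *twk-11*, *twk-12*, *twk-16*, *twk-18*, *twk-20*, *twk-22*, *twk-23*, *twk-24*, *twk-25*, *twk-26*, *twk-28*, *twk-29*, *twk-32*, *twk-34*, *twk-35*, *twk-36*, *twk-37*, *twk-40*, *twk-42*, *twk-43*, *twk-44*, *twk-46*, *twk-47* and *sup-9*. For the 39 genes without a shared region, the distance from the gene body to the nearest shared region had a median of 8780 bp and ran from 780 to 143443 bp. The nearest was at *twk-26*, where a region with 7.67 in replicate 1 and 7.96 in replicate 2 lay 780 bp beyond the 3′ end and therefore outside the limits of the gene. *twk-18*, a channel of body wall muscle, had a region of 5.23 and 7.56 at 3351 bp beyond its 3′ end. The farthest were the neighbours *twk-36*, *twk-42* and *twk-33* on chromosome V, at 110761, 125204 and 143443 bp from 1 and the same region, with 13.4 in replicate 1 and 12.8 in replicate 2.

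Shared regions were unevenly spread over the chromosomes. On chromosome II, 4 of 6 members had one (*twk-2*, *twk-4*, *twk-5* and *twk-49*), against 23.2% of all protein-coding genes there. Those of *twk-4* all lie in *sym-2* as well. When each region went only to the nearest gene start, *twk-2* and *twk-5* were left on this chromosome. On chromosome V it was 1 of 14 members, against 16.3%. On chromosome I it was 1 of 5, against 30.4%, on chromosome III 1 of 7, against 32.5%, and on chromosome IV 0 of 4, against 754 of 3281 genes. On the X chromosome, 1 of 11 members had a shared region (9.09%), against 33.6% of all X-linked protein-coding genes, and 3 had a peak of any kind. On the autosomes it was 7 of 36 (19.4%), against 23.8%.

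Gene length was set beside these counts, since a longer gene has more room for a region. TWK genes have a median length of 4633 bp, against 2027 bp over all protein-coding genes. A shared region was found at 0 of 1 TWK gene shorter than 2000 bp, against 17.3% of all genes of that class. It was found at 3 of 23 TWK genes from 2000 to under 5000 bp (13.0%), against 26.6%, and at 3 of 17 from 5000 to under 10000 bp (17.6%), against 41.2%. At 10000 bp or more it was 2 of 6 (33.3%), against 56.3%, and all 6 had a peak in at least 1 replicate, against 69.8%. The share of TWK genes with a shared region was lower than that of all genes in every length class, with few genes in the first and the last.

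**Figure D5:**
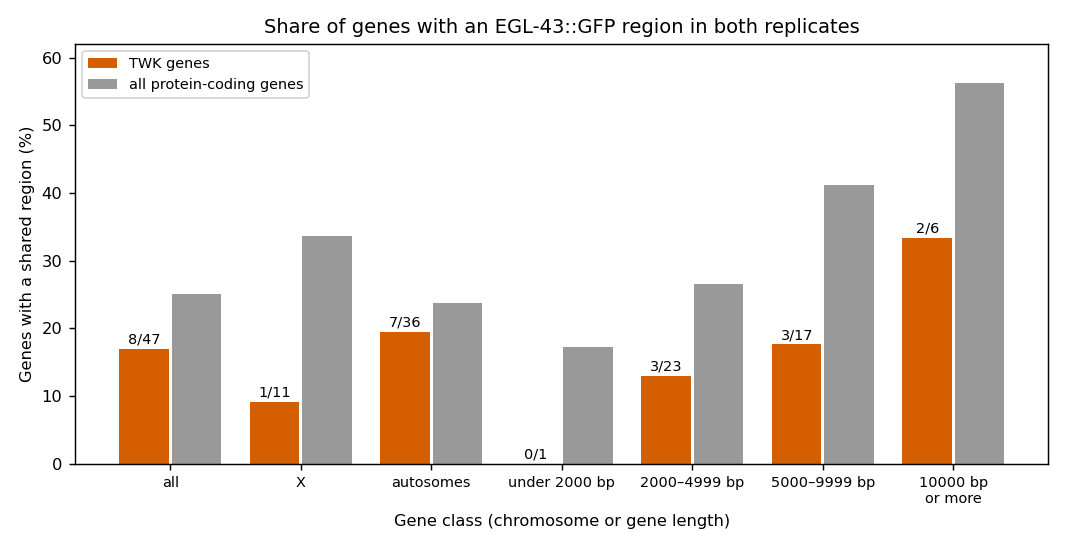
Percentage of genes with a shared region (vertical axis) among TWK genes (orange, with counts) and all protein-coding genes (grey), for all genes, for the X chromosome, for the autosomes together and by gene length (horizontal axis). The orange bar is the lower one in each class drawn, with 8 of 47 genes overall and 1 of 11 on the X chromosome.

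Other ion channel genes were counted in the same way. Of 25 other potassium channel genes (voltage-gated, calcium-activated and inward rectifier types), 13 had a shared region (52.0%), against 25.1% of all protein-coding genes. By the lower of the replicates' values, the highest were *slo-1*, the BK-type calcium-activated channel (9.17 in replicate 1 and 11.98 in replicate 2), *shk-1*, a Shaker-type channel (7.84 and 9.62), and *shw-3*, a Shaw-type channel (6.77 and 6.89). All 3 were above every TWK region in both replicates. These genes are longer than the TWK genes, with a median of 12145 bp. At 10000 bp or more, 10 of 18 had a shared region (55.6%), against 56.3% of all protein-coding genes of that length. From 5000 to under 10000 bp it was 3 of 5, against 41.2%, and from 2000 to under 5000 bp 0 of 2, against 26.6%. Of the proteins that act with SUP-9 or form the sodium leak channel complex, which counteracts potassium leak, 7 of 8 genes were matched by symbol. The gene not matched was *nca-1*, listed for that complex, and it was not examined. Of the 7, 3 had a shared region (42.9%), against 25.1% of all protein-coding genes. These were *unc-80* (7.03 in replicate 1 and 6.02 in replicate 2) and *unc-79* (2.96 and 3.54), which encode subunits of that complex, and *nlf-1*, needed for its transport to the membrane (4.12 and 5.13). The SUP-9 partners *unc-93*, *sup-10* and *sup-18* and the channel gene *nca-2* had no peak. Of these 7 genes, *unc-79*, *unc-80* and *nca-2* are longer than 10000 bp, a class in which 56.3% of all protein-coding genes had a shared region. The rest are shorter than 5000 bp.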

How the data were processed

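EGL-43::GFP ChIP-seq was analysed from the 2 peak lists, 1 per biological replicate, grouped by their labels. The authors aligned reads to ce11 (the same assembly as WBcel235) with BWA and called peaks with MACS2 on each replicate at an FDR stated as 0.05, while no peak present exceeds a q-value of 0.00395 in replicate 1 or 0.00688 in replicate 2. For their final set they split regions found in both replicates into separate peaks, applied a signal threshold and discarded blacklisted regions. Those later steps were not applied here, so the shared regions are not the study's final set. The deposited lists give the fold enrichment of each summit, a ratio to the estimated background, and −log10 of the p-value and of the q-value. The deposited score is 10 times the −log10 q-value rounded down for 19318 of 19319 peaks, and it was not used. Summits are deposited relative to the peak start, and positions here count from 1.

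Overlapping peaks were merged, 4 mitochondrial regions were left out, and regions were assigned to Ensembl release 115 protein-coding genes whose body or 2000 bp upstream window they touched. Features were taken in the longest coding transcript. Shared regions were ranked by the lower fold enrichment. Members, gene lists and words were chosen with earlier results of these data known, and the word CTCTCTCT was added after its windows were read. The genes named are all members, with full values where a region was shared, and the 3 highest genes of each other list. Counts are set beside all protein-coding genes, with no test. Merging and assignment were checked on simulated peaks. A planned search for pore signatures was not run, since no protein sequences were used here. Python 3.11.15, numpy 2.4.6 and matplotlib 3.10.9 were used.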

Additional observations from a re-analysis of the deposited data

How the results depend on the processing

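The count of 8 TWK genes with a shared region, and these same 8 genes, remained with a q-value of at most 1e-05, with a reciprocal overlap of at least 50% and with the summit required inside the body or window. With summits within 100 bp of each other it was 6 (*twk-2* and *twk-14* were lost), and the genes with a region of their own numbered 3. A region of its own means one assigned to no other protein-coding gene. A noncoding gene may still lie there, as at *twk-48* and *twk-5*. With 500 bp upstream it was 6, with 0 X-linked genes and 1 gene with an upstream summit. With 5000 bp upstream it was 11 (23.4%, against 34.4% of all protein-coding genes), with 2 X-linked genes, 6 with an upstream summit and 3 with a region of their own. When each region went only to the nearest gene start, 4 genes (8.51%, against 18.2%) with 4 regions were left, *twk-2*, *twk-5*, *twk-17* and *twk-48*.

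Leaving out a replicate also drops the demand for a partner. The lower value below is in each case replicate 1 alone and the higher one replicate 2 alone. TWK genes with a peak then numbered 10 to 17, their regions 15 to 35, those with a region of their own 8 to 14, X-linked ones 1 to 3 and those with an upstream summit 3 to 9. All protein-coding genes numbered 5372 to 6392 and other potassium channel genes 14 to 16; the window of 5000 bp moved these more, to 6864 and 18. Replicate 2 alone thus put the TWK share above that of all genes (36.2%, against 32.0%), and replicate 1 alone below it (21.3%, against 26.9%). These shares take no account of gene length. The search windows of 201 bp held none of the EVI1 or AP-1 words at TWK summits either. Taking each replicate alone for the highest fold enrichment of a gene was added after the data were seen. No paired analysis was possible because there is only 1 group. Without read totals, a region of 1 replicate cannot be told from one missed in the other.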
